A study of Mus musculus with 2 samples.

Results

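Inner root sheath keratinocytes were taken from single-cell RNA profiles of newborn mouse dorsal skin by the keratins they express. A cell was a member when Krt25, Krt27, Krt28, Krt71 and Krt73 together made up at least 5 of 10000 unique molecular identifiers (UMIs, each counting 1 captured RNA molecule), at least 2 of these 5 keratins were detected, Cux1 was at 3 or more per 10000 and the hair shaft keratin Krt35 was under 5 per 10000. Cells were kept when they had more than 1000 but fewer than 8000 genes detected and when mitochondrial transcripts gave less than 15% of UMIs. Of 8206 such cells, 578 were members, 445 in the control library and 133 in the Gli2EKO library, out of 10622 deposited barcodes. The Gli2EKO mice carried K14Cre tg;Gli2 fl/fl, in which Cre expressed from a Krt14 promoter recombines floxed Gli2 in keratinocytes that express or descend from cells that expressed Krt14. The controls, labelled WT, were floxed littermates without Cre, so both groups share the floxed allele, and both were kept on the C57BL/6N background. Both libraries were made at postnatal day 2 from epidermis and hair follicles freed by collagenase and trypsin. There was 1 library per genotype, and the number and sex of the mice behind each are not given in the sources used here. No test between genotypes was therefore possible, and all intervals below are 95% intervals that cover counting error only.

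The inner root sheath is the multilayered tube, made of Henle's layer, Huxley's layer and a cuticle, that surrounds and moulds the growing hair shaft. Its cells arise from the proliferating hair matrix, accumulate type I keratins (Krt25, Krt27, Krt28) paired with type II keratins (Krt71, Krt73) and trichohyalin (Tchh), harden by transglutaminase crosslinking, and are shed higher in the follicle. Gata3 and Cux1 are transcription factors known from inner root sheath cells, and Gata3 is required for the lineage. In the GRCm39 build, Krt25 (ENSMUSG00000035831, 99206342 to 99213777), Krt27 and Krt28 lie in 1 cluster on the minus strand of chromosome 11. Krt71 (ENSMUSG00000051879, 101642384 to 101651544) and Krt73 (ENSMUSG00000063661, 101701743 to 101710802) lie on the minus strand of chromosome 15, Tchh (ENSMUSG00000052415) is on chromosome 3 and Gata3 (ENSMUSG00000015619) on chromosome 2.

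The promoters of the keratins that choose the cells, and of Tchh, which was higher at a high keratin sum in both libraries, are printed because these genes were read out together. Each line gives the 250 bases before the start of the canonical transcript, 5′ to 3′ on the strand of the gene, from GRCm39 with GENCODE annotation. Capitals mark TATAAA on the sense strand and GATAA, the core letters of GATA factor binding, on either strand.
Krt25 promoter, chr11:99213778-99214027, minus strand: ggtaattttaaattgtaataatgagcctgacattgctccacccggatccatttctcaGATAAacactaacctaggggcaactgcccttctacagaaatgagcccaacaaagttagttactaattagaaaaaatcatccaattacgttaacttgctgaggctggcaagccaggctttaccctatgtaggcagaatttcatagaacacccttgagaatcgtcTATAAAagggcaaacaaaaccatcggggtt
Krt27 promoter, chr11:99241931-99242180, minus strand: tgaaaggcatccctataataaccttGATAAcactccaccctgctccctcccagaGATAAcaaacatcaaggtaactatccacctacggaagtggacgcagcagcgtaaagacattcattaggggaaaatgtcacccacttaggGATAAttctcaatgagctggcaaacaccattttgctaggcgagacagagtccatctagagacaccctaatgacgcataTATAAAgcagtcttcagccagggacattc
Krt28 promoter, chr11:99265736-99265985, minus strand: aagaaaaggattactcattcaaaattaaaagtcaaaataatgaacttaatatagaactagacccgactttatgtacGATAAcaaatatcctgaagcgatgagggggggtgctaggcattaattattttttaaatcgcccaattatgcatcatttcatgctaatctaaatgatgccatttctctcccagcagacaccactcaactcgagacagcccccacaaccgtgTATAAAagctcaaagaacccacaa
Krt71 promoter, chr15:101651545-101651794, minus strand: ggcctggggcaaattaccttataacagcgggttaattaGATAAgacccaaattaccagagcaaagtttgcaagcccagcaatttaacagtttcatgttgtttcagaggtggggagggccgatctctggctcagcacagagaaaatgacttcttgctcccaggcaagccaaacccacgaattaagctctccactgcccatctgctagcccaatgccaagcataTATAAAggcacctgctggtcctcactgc
Krt73 promoter, chr15:101710803-101711052, minus strand: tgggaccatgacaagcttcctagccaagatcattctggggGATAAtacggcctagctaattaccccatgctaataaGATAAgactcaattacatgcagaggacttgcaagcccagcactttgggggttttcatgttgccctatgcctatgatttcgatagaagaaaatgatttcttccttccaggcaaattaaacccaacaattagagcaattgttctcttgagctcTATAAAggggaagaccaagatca
Tchh promoter, chr3:93349387-93349636, plus strand: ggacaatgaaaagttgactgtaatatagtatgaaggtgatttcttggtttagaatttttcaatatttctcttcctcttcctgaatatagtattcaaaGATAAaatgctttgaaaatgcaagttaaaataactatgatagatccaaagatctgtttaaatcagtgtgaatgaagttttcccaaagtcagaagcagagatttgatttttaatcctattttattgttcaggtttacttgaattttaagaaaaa
All 5 keratin promoters held TATAAA with its first base between 23 bases (Krt73) and 30 bases (Krt25) before the start, whereas 517 of 21770 protein-coding promoters of the same length (2.37%) held it 20 to 40 bases before the start. All 5 held GATAA, which 22.4% of those promoters held on either strand. The Tchh promoter held no TATAAA but held GATAA. The core letters of LEF/TCF binding, CTTTGA, searched on both strands, were found in 14.1% of promoters, among them Krt28 and Tchh, where the minus-strand match shared a base with the GATA letters. The Gata3 promoter held none of the 3. A match of letters is a description and not a bound site.

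The keratin sum chose the cells, so its levels are given as a description. In the control library 568 cells reached the keratin minimum, 532 of these had 2 or more of the keratins, 472 also had enough Cux1, and 445 remained after the Krt35 limit. In the Gli2EKO library the same steps kept 209, 189, 153 and 133 cells. The nearest cells inside and outside the keratin minimum had 5.0008 and 4.98 UMIs per 10000 in the control and 5.09 and 4.95 in the Gli2EKO library. In the control 60 cells lay between 5 and 6 and 47 between 4 and 5 per 10000, and in the Gli2EKO library 10 and 6, so that the limit cuts through a continuous range. For Cux1 the nearest cells inside and outside had 3.02 and 2.81 UMIs per 10000 in the control and 3.19 and 2.99 in the Gli2EKO library, and for Krt35 4.86 and 5.16 and 4.37 and 5.004. In immune and endothelial cells, which should lack these keratins, the pooled keratin sum was 0.434 (control, 130 cells, median 10500 UMIs) and 0.231 per 10000 (Gli2EKO, 73 cells, median 11974 UMIs), and 2 and 1 of these cells reached 5 per 10000. The control library held 71021773 and the Gli2EKO library 48866478 UMIs over all barcodes. Members had a median of 15299 UMIs in the control and 14941 in the Gli2EKO library, and no barcode was shared by the libraries.

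The sum spread over more than 2 orders of magnitude in both libraries. In control members it ran from 5.0008 to 1957 per 10000 with a median of 11.3, and in Gli2EKO members from 5.09 to 2019 with a median of 14.8. Most cells were therefore low: 302 of 445 control cells (67.9%) and 78 of 133 Gli2EKO cells (58.6%) were between 5 and 20 per 10000. A further 104 and 41 cells were between 20 and 100, 33 and 10 between 100 and 400, and 6 and 4 at 400 or over.

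**Figure D1:**
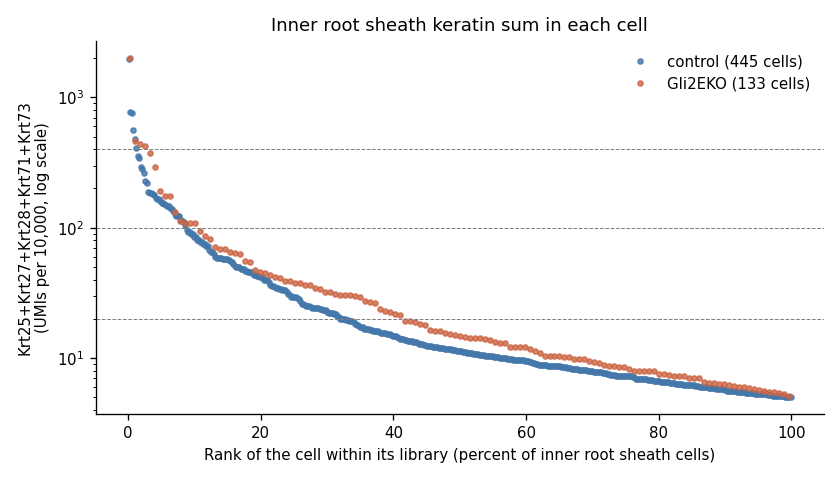
Keratin sum of each inner root sheath cell (UMIs per 10000, log scale) against its rank within its library (percent of the library's inner root sheath cells), with 445 control and 133 Gli2EKO cells as points and dashed lines at 20, 100 and 400 per 10000. The cells at 100 or more per 10000 gave 59.4% of the keratin UMIs of control and 82.1% of those of Gli2EKO members, and the highest cells lie at 1957 and 2019 per 10000.

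The make-up of the sum differed along it. Krt28 was detected in 96.0% of control and 94.0% of Gli2EKO members, Krt25 in 84.5% and 88.7%, Krt27 in 73.0% and 78.9%, and Krt71 in 48.3% and 42.1%. Krt73 was detected in 26.1% (22.0 to 30.4%) of control and 44.4% (35.8 to 53.2%) of Gli2EKO members. With every cell thinned to 2000 UMIs, Krt73 was in 16.9% and 34.6% of members, against 3.85% and 1.39% of immune and endothelial cells. Krt28 gave the most keratin UMIs in the lowest bin (47.1% in control and 43.8% in Gli2EKO cells), where Krt71 gave 9.23% and 8.54%. At 400 and over, Krt28 gave 2.77% and 1.43%, and Krt25 and Krt71 gave 51.2% and 35.1% in control and 46.1% and 39.99% in Gli2EKO cells. Krt73 was at its largest share between 20 and 100 per 10000, with 16.7% of keratin UMIs in control and 29.6% in Gli2EKO cells, and under 1% in the highest bin of both. One Gli2EKO cell held 53.4% of the Krt71 and 44.9% of the Krt25 UMIs of the Gli2EKO members, so the high end of that library rests largely on it.

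**Figure D2:**
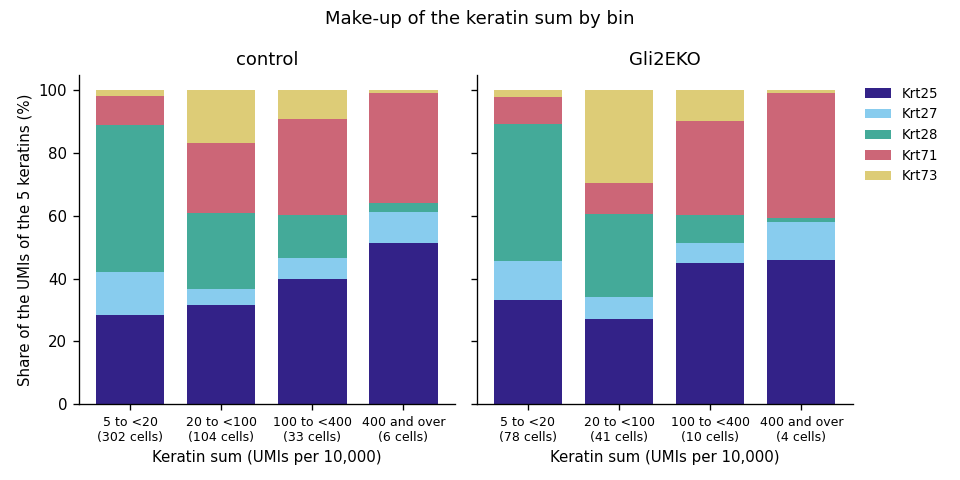
Share of the UMIs of the 5 keratins given by each (percent) in 4 bins of the keratin sum (UMIs per 10000), for control (left) and Gli2EKO (right), with the number of cells under each bar. Krt28 leads the lowest bin, Krt73 is largest at 20 to under 100, and Krt25 with Krt71 leads from 100 upwards.

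Against the marker genes of the inner root sheath, the lowest bin carried the name less well than the higher ones. Expression is given from here in CPM, for which each gene's UMIs were added up within a group of cells and scaled to a total of 1000000, with the 5 keratins left out of the total. Tchh was at 43.5 CPM in control and 44.2 CPM in Gli2EKO cells of the lowest bin, and at 2187 and 3432 CPM between 100 and 400 per 10000. Gata3 was detected in 71.0% of control and 76.7% of Gli2EKO members, against 15.4% and 6.85% of immune and endothelial cells. Its level was 145 and 166 CPM in the lowest bin, 424 and 395 CPM between 20 and 100, 382 and 386.5 CPM between 100 and 400, and 92.1 and 38.7 CPM at 400 and over, so that it was highest at intermediate keratin in both libraries. The lowest bin also carried genes of the hair matrix, the proliferating cells at the base of the follicle. The ligand gene Shh was at 89.7 and 71.4 CPM there, and the matrix homeobox gene Msx1 at 165 and 89.2 CPM. In matrix cells, taken as cells with Shh, Myb, Msx1, Edar and Cldn10 at 3 or more UMIs per 10000 and little keratin, Shh was at 60.2 and 204 CPM and Msx1 at 207 and 81.1 CPM, levels that the choice of those cells raises. The cells between 5 and 20 per 10000 thus held inner root sheath keratins together with matrix genes, and the low end is named here only by the rule.

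Genes were then followed along the sum by setting the cells at 100 or more per 10000 (39 control and 14 Gli2EKO cells) against those under 20 within each library. Of 8685 genes with at least 100 UMIs in the members of both libraries together, 395 (4.55%) were 2-fold or more higher at the high end in both libraries, and 688 (7.92%) were 2-fold or more lower. The bins come from the rule, so these are descriptions with no test.

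Among the other sheath keratins and sheath proteins, 5 of 13 listed genes passed the minimum, and 2 of the 5 were higher at the high end. Tchh, which bundles keratin filaments in the sheath, was at 5622 CPM in control and 12248 CPM in Gli2EKO cells at the high end, log2 ratios of 7.02 and 8.11 over the lowest bin. Padi3, which converts arginine of trichohyalin to citrulline, was at 94.9 and 124 CPM against 6.92 and 3.10 CPM. The protease gene Ctsl was lower at the high end, with log2 ratios of −1.63 and −2.62. Tgm3, a crosslinking transglutaminase, had log2 ratios of 2.35 in the control but 0.54 in the Gli2EKO library and was not counted.

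Of 9 measured genes of desmosomes, the junctions that hold keratinocytes together and anchor keratin filaments, 6 were 2-fold or more higher at the high end and 1 was lower. Dsc1, a desmosomal cadherin of differentiated layers, was at 14.6, 148, 367 and 932.5 CPM in the 4 bins of control and at 36.5, 170.4, 443 and 719.5 CPM in those of Gli2EKO cells, higher in each bin than in the one before. The plaque protein Dsp was at 1707 and 1621 CPM at the high end, against 459 and 507 CPM in the lowest bin. Perp, Jup, Pkp1 and Pkp3 were also over 2-fold higher in both libraries, whereas Dsg2, a cadherin of basal cells, was lower, at log2 ratios of −1.22 and −2.40. Of 9 measured hemidesmosome and basement membrane genes, which attach basal cells to the dermis, none was higher and 2 were lower, Itgb1 and Lama3. The median log2 ratio of the desmosome list was 1.89 in control and 1.48 in Gli2EKO cells, beside −0.10 and −0.12 over all genes tested.

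Cell cycle genes lay on the other side. Of 20 S phase genes, 18 were 2-fold or more lower at the high end, with list medians of −1.77 in control and −2.14 in Gli2EKO cells. The replication clamp gene Pcna was at 326 and 323 CPM in the lowest bin, 222.5 and 239.7 CPM in the next, 95.4 and 97.9 CPM between 100 and 400, and 11.5 and 15.5 CPM above. Hells, a chromatin remodeller of dividing cells, gave log2 ratios of −2.20 and −3.40. G2/M genes held longer along the sum: 5 of 20 were past 2-fold lower, and Mki67, the proliferation marker, was at 864 CPM in the lowest, 891 CPM in the second and 440.4 CPM in the third bin of control cells, with 34.5 CPM in the highest. In Gli2EKO cells Mki67 was at 528.5, 440.3 and 428 CPM in the first 3 bins and at 0 UMIs in the 4 cells of the highest.

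Of 20 measured transcription factors of sheath and matrix, 3 were higher and 7 lower at the high end. Klf4, a factor of differentiating epidermis, went from 50.4 to 531 CPM in control and from 81.5 to 569 CPM in Gli2EKO cells. Foxn1 and Ovol1, both factors of hair and epidermal differentiation, had log2 ratios of 1.93 and 1.91 and of 2.00 and 1.11. Lef1, which carries Wnt signals in the matrix, went from 433 to 111 CPM and from 329 to 40.2 CPM. Myb, at 61.6 and 27.2 CPM in the lowest bin, was found with 0 UMIs at the high end of the control and 1 UMI in the Gli2EKO library. Msx1, Dlx2, Hoxc13, Sox21 and Runx1 were the remaining factors past 2-fold lower. Trps1, by contrast, peaked with Gata3 between 20 and 100 per 10000, at 282 and 259 CPM, and Notch3 did so as well, at 139 and 128 CPM.

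Of 9 hair matrix markers, 7 were lower and none higher at the high end. The exceptions were Dlx3, at log2 ratios of 0.83 and 0.94, and Wnt10b, at −1.49 and −0.88. The tight junction gene Cldn10 was at 134 and 113 CPM in the lowest bin and at 9.13 and 3.09 CPM at the high end. Both metallothioneins, small metal-binding proteins, were also among the genes with the lowest ratios: Mt2 was at 3548 and 4376 CPM in the lowest bin and at 330.4 and 173 CPM at the high end. Dcn, which encodes the proteoglycan decorin and is known from dermal fibroblasts, was at 1660 and 1902 CPM in the lowest bin and at 131 and 27.8 CPM at the high end. With cells thinned to 2000 UMIs, Dcn was detected in 48.2% of control and 43.6% of Gli2EKO members, against 13.1% and 4.17% of immune and endothelial cells, and Dcn was at 1079 and 1273 CPM in matrix cells. Without the cells that carried markers of another cell type, which are defined below, Dcn was at 1309 and 1456 CPM over all members.

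The genes with the highest ratios beside Tchh differed in how many cells carried them. Lypd5, a surface protein gene, was at 85.8 and 334 CPM at the high end with 1 UMI in the lowest bin of each library, but 77.3% of its Gli2EKO UMIs came from 1 cell. Crnn, a cornified envelope gene related to trichohyalin, had 57 UMIs at the high end of each library and 0 in the lowest bin, log2 ratios of at least 7.46 and 6.24 against a floor of 3 counts, with 66.7% of its Gli2EKO UMIs in 1 cell. Sprr1a, another envelope precursor, was at 836 and 1546 CPM against 8.89 and 8.54 CPM, although 91.2% of its Gli2EKO UMIs came from 1 cell. Nkd2, an inhibitor of Wnt signalling, was at 102 and 86.6 CPM against 3.56 and 3.10 CPM, with no cell above 7.06% of its UMIs. The kallikrein protease gene Klk7, the carboxypeptidase gene Cpm, the water channel gene Aqp3 and the vesicle trafficking gene Sytl2 were likewise higher, at log2 ratios between 3.85 and 4.75, although 1 control cell held 58.9% of the control Klk7 UMIs.

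**Figure D3:**
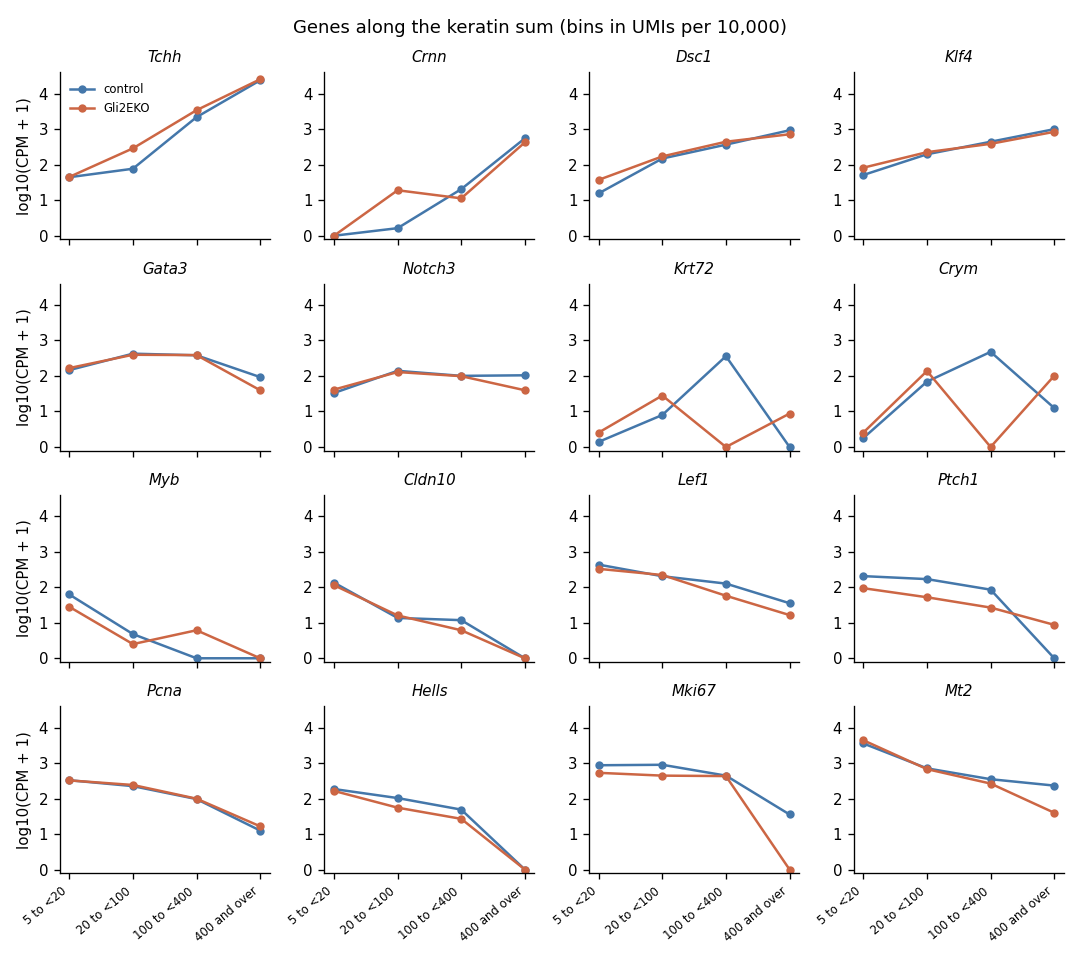
Expression (log10 of CPM plus 1) of 16 genes in 4 bins of the keratin sum (UMIs per 10000), control in blue and Gli2EKO in red, 1 library each and therefore without error bars. Tchh, Crnn, Dsc1 and Klf4 are higher towards the high end in both libraries, Gata3 and Notch3 are highest in the middle, and the lower 2 rows are lower towards the high end.

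The keratin-rich cells were not alike. Cells at 20 or more per 10000 were parted, after the data had been seen, into a Krt73 set (Krt73 at 10 or more and Krt71 under 10 per 10000) and a Krt71 set (the reverse). In the control library 31 of 143 such cells (21.7%, 15.2 to 29.3%) were in the Krt73 set and 55 (38.5%, 30.5 to 47.0%) in the Krt71 set, while in the Gli2EKO library 22 of 55 (40%, 27.0 to 54.1%) and 13 (23.6%, 13.2 to 37.0%) were. A further 15 and 8 cells had both keratins and 42 and 12 had neither. Of 3841 genes with at least 100 UMIs, 71 (1.85%) were 2-fold or more higher in the Krt73 set in both libraries and 50 (1.3%) in the Krt71 set. Without cells carrying markers of another cell type the counts were 78 and 66.

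The Krt73 set carried Krt72, which with KRT73 is known from the cuticle of the human inner root sheath, at 326 CPM in the control against 11.1 CPM in the Krt71 set. Prr9, a small proline-rich protein gene, was at 2722 against 240.5 CPM in the control and at 1933 against 148.5 CPM in the Gli2EKO library, where its log2 ratio went from 3.70 to 1.88 without cells carrying other markers. Crym, which encodes the thyroid hormone binding protein mu-crystallin, was at 602 against 27.7 CPM in the control and had 74 against 0 UMIs in the Gli2EKO library. The control values of Krt72 and Crym did not depend on cells with markers of another type, at log2 ratios of 5.67 and 4.58 without them, but the Gli2EKO values did: without them Krt72 was at or under the floor of 3 counts in both sets and Crym close to it. In the control without those cells, Krt72 was found in 13 and Crym in 23 members. There 1 cell each held 46.3% of the Krt72 and 27.3% of the Crym UMIs. Cdh6, a classical cadherin gene, was at 356 against 28.8 CPM in the control and 330.5 against 50.9 CPM in the Gli2EKO library, and kept log2 ratios of 3.58 and 2.70 without cells carrying other markers. Such cells were 2 of 31 control and 6 of 22 Gli2EKO cells of the Krt73 set. Krt79 was also higher in the set, at 622 against 92.0 CPM in the control and 1598 against 8.48 CPM in Gli2EKO cells. Its log2 ratios without such cells were 0.84 and 2.58, and those of Krt17 were 0.25 and 0.77. Several regulators were also higher in this set. Gata3 was at 540.4 against 214 CPM in control and 454 against 93.3 CPM in Gli2EKO cells, Trps1 at 471 against 107 CPM and 394 against 46.7 CPM, and Lef1 at 316 against 88.7 CPM and 307 against 38.2 CPM. Notch2 was higher in the Krt73 set of both libraries, at log2 ratios of 1.92 (1.40 to 2.45) and 2.04 (1.16 to 3.06), whereas Notch1 and Notch3 had intervals that spanned 0. The Hedgehog target Ptch1 had 94 against 127 UMIs in the control, a log2 ratio of 0.41 (0.0077 to 0.80), and 25 against 2 UMIs in the Gli2EKO library, 2.95 (0.95 to 6.07).

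In the Krt71 set the leading gene was Tchh, at 3450 CPM against 81.5 CPM in the Krt73 set of the control and at 11456 against 412 CPM in the Gli2EKO library. Krt25 followed it, at log2 ratios of −2.86 and −4.32 (Krt73 set over Krt71 set), and Krt27 at −1.03 and −3.92. Sytl2 was at 380.1 against 5.96 CPM and 645 against 52.5 CPM, and Anxa1, a calcium-dependent membrane protein gene, at 945 against 101 CPM and 2422 against 506 CPM. Crnn, Klk10, Map2, Tspan6 and the unnamed locus 2310046K23Rik were on the same side in both libraries. Over all Gli2EKO members, however, 1 cell held 44.9% of the Krt25 and 41.9% of the Krt27 UMIs. Without the cells carrying other markers, 1 Gli2EKO cell each held 53.9% of the Tchh, 84.3% of the 2310046K23Rik and 92% of the Crnn UMIs. For Sytl2 and Anxa1 that share was 30.6% and 27.4%. The Gli2EKO ratios of the sets were not taken without the highest cell. Dsc1 and Krt75 pointed in opposite directions in the libraries, at log2 ratios of 1.15 and −0.85 and of −4.55 and 2.07, and the Krt75 value rests on 2 UMIs in the control Krt73 set. The sets did not separate by proliferation in the same way either, with Mki67 at log2 ratios of −0.40 and 0.62.

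**Figure D4:**
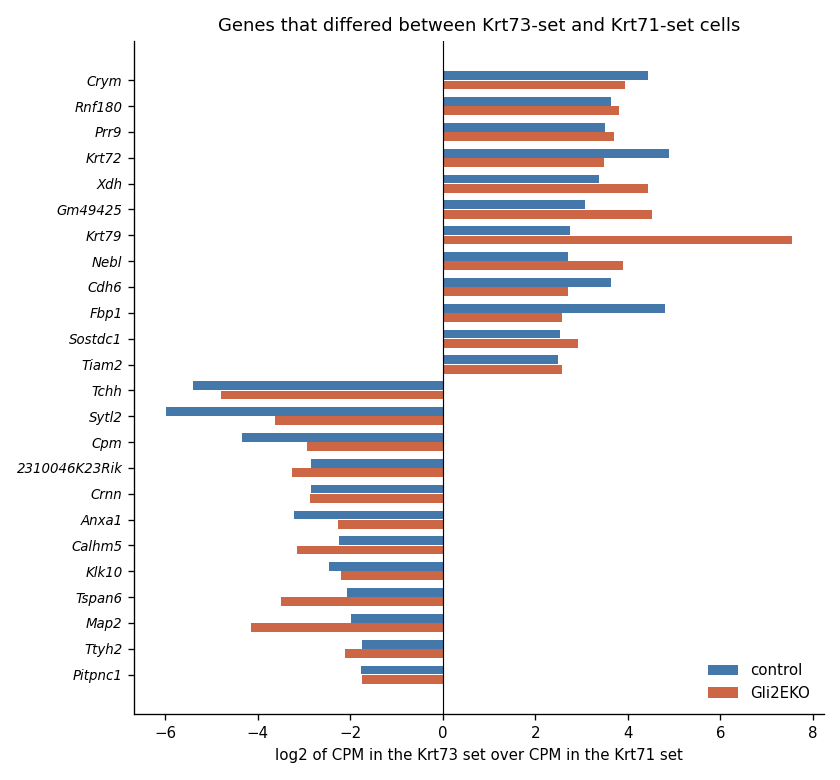
Log2 ratio of CPM in the Krt73 set over CPM in the Krt71 set for the 12 genes furthest on each side, control (31 and 55 cells) in blue and Gli2EKO (22 and 13 cells) in red, where a set with 0 UMIs was given a floor of 3 counts. Crym, Krt72 and Nebl point to the Krt73 set here, but in the Gli2EKO library their values rested on cells with markers of another type.

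Set beside the populations most like them, few genes stood apart from both in both libraries. Members were compared with 197 control and 59 Gli2EKO matrix cells and with 161 and 85 hair shaft cells (Krt35 at 5 or more per 10000). Of 10172 genes tested, 50 (0.492%) were 2-fold or more higher than in both populations in both libraries and 34 (0.334%) lower. Since the cells were chosen on keratins, this is a description as well. Tchh was at 476 and 1850 CPM in members, 21.3 and 19.2 CPM in matrix and 14.4 and 23.4 CPM in hair shaft cells of the control and Gli2EKO libraries. Maf, a leucine zipper transcription factor gene, was at 71.0 and 104 CPM against 20.1 to 21.3 CPM in the 4 comparison groups. Ctsc, a lysosomal protease gene, was at 59.3 and 219.8 CPM against 1.07 to 16.6 CPM. The Wnt receptor gene Fzd5 was at 40.4 and 28.1 CPM against 3.20 to 11.5 CPM, and it differed little along the keratin sum, at log2 ratios of 0.29 and 0.46. Alox12e, Tuba8, Ggt1, Pcdh1 and Cpm were also on this list, at 9.32 to 54.9 CPM.

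Lower in members than in both populations was Aldh1a3, which makes retinoic acid, at 18.5 and 4.83 CPM against 154 and 64.0 CPM in matrix and 199 and 108 CPM in hair shaft cells. Ednra, an endothelin receptor gene, was at 12.5 and 12.7 CPM against 39.5 to 122 CPM, and Krtap8-1, a hair shaft keratin-associated protein gene, at 9.46 and 7.91 CPM against 49.1 to 329.6 CPM. Gata3 was 2-fold or more above both populations in both libraries, at log2 ratios between 1.14 and 1.97. Foxn1 was above matrix cells, at log2 ratios of 2.38 and 4.02, but not above hair shaft cells, at −0.50 and −0.07, and Trps1 and Lef1 were lower than in hair shaft cells, at −2.08 and −2.32 and at −1.58 and −1.80.

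Inner root sheath cells made up a smaller share of the Gli2EKO library. They were 445 of 4844 control cells (9.19%, 8.39 to 10.0%) and 133 of 3362 Gli2EKO cells (3.96%, 3.32 to 4.67%), a ratio of 0.431 (0.352 to 0.524). Of keratinocytes alone they were 14.6% and 5.77%, a ratio of 0.396 (0.324 to 0.482). Matrix cells had nearly the same ratio, 0.432 (0.317 to 0.580), so that there were 2.26 inner root sheath cells per matrix cell in the control and 2.25 in the Gli2EKO library. Matrix cells were called by a fixed minimum on 5 marker genes, however, and some of these differed between the libraries. In Gli2EKO matrix cells Msx1 was lower and Shh higher, so the number called also depends on marker levels, which was not tested. Hair shaft cells had a ratio of 0.761 (0.578 to 0.995), and inner root sheath cells per hair shaft cell were 2.76 (2.30 to 3.33) in the control and 1.56 (1.18 to 2.08) in the Gli2EKO library. The members too were called by fixed limits. The Cux1 limit took 532 control cells to 472 and 189 Gli2EKO cells to 153. The Krt35 limit then took these to 445 and 133, and the cells above it counted as hair shaft cells. Median Cux1 was 11.6 per 10000 in control and 9.26 in Gli2EKO members. With no Cux1 minimum the ratio of shares of inner root sheath cells was 0.478, and at a keratin minimum of 20 per 10000 it was 0.554. The part of Krt35 levels in these counts was not tested. How many animals and follicles stand behind each share is unknown, and the genotype and the library cannot be told apart.

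A small number of members carried markers of other cell types, and more so in the Gli2EKO library. Cells with 20 or more UMIs per 10000 of Krt1 and Krt10, of 3 fibroblast collagens, of 5 melanocyte genes, of 6 immune and endothelial genes, or of Krt6a, Krt16, Krt79 and Cst6 numbered 23 of 445 in the control and 22 of 133 in the Gli2EKO library. The epidermal keratins Krt1 and Krt10 passed this limit in 6 and 10 cells, the collagens in 9 and 4, the melanocyte genes in 4 and 1, the immune and endothelial genes in 1 and 0, and the companion and upper follicle genes in 3 and 9. Medians over members stayed near 1 per 10000 for Krt1 and Krt10 (1.04 and 1.01) and at 0 for the melanocyte genes. Over all members, 1.16% of all genes tested were 2-fold or more higher and 2.38% lower in Gli2EKO. Of 6 fibroblast markers 1 was higher and 2 were lower, and of 5 companion layer markers 2 were higher and 1 was lower. Both melanocyte markers with enough UMIs of 5, Dct and Pmel, were higher. Without the 2% of cells highest in each gene, however, their log2 ratios were −0.62 and −2.08. Of 9 outer root sheath markers 1 was higher and 1 lower, the single hair shaft marker with enough UMIs was higher, and none of 10 mitochondrial genes passed 2-fold. The part of these cells in the differences was not tested beyond leaving them out. Every difference between the libraries below is therefore given with all members, and without these cells where that matters.

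Over all members, 101 of 8685 genes (1.16%) were 2-fold or more higher and 207 (2.38%) 2-fold or more lower in Gli2EKO, with a median log2 ratio over all genes of −0.14. Without the cells carrying other markers, 38 were higher and 227 lower. Without the 2% of cells highest in each gene, 84 of the 101 and 170 of the 207 genes were still past 2-fold. The higher genes were concentrated in fewer cells. At the median, 5 of the 133 Gli2EKO members held 63.6% of the Gli2EKO UMIs of a higher gene. For a lower gene, 5 of the 445 control members held 18% of the control UMIs.

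Target genes of the Hedgehog pathway were lower in Gli2EKO members. In this pathway Shh binds the receptor Ptch1, which frees Smo to act on Gli factors, and Ptch1 and Gli1 are themselves induced by the signal. Ptch1 was at 187 CPM in the control (1342 UMIs) and 70.3 CPM in the Gli2EKO library (160 UMIs), a log2 ratio of −1.41 (−1.66 to −1.17), and at −1.41 without the cells carrying other markers. It was lower in the lowest keratin bin (205 and 93.1 CPM), between 20 and 100 per 10000 (169 and 51.3 CPM) and at the high end (71.2 and 18.6 CPM, with 39 and 6 UMIs). Gli1 was at 25.7 and 9.23 CPM, a log2 ratio of −1.48 (−2.21 to −0.83). Ptch1 was found in 25.7% (21.7 to 30.0%) of control and 9.02% (4.75 to 15.2%) of Gli2EKO members thinned to 2000 UMIs, against 7.69% and 5.56% of immune and endothelial cells, so that the Gli2EKO share was close to the background.

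The ligand gene Shh was at 69.7 and 65.9 CPM, a log2 ratio of −0.08 (−0.35 to 0.19). Smo was at 104 and 83.1 CPM. Gli3 was at 137 and 88.8 CPM, a log2 ratio of −0.63 (−0.85 to −0.41). Gli2, the targeted gene, was at 60.9 and 33.0 CPM, a log2 ratio of −0.89 (−1.26 to −0.53), but the assay reads the 3′ end of transcripts and the sources used here do not give the deleted exons, so that these counts may include transcripts of the recombined allele and check nothing. Gas1, a Hedgehog co-receptor gene, was the pathway gene past 2-fold higher, at 17.4 and 41.8 CPM, and at 11.7 and 20.1 CPM without the cells carrying other markers. In all, 1 of 11 measured pathway genes was higher and 2 were lower, beside 1.16% and 2.38% of all genes tested. In matrix cells the log2 ratio of Ptch1 was −0.42 (−0.63 to −0.21), and in hair shaft cells it was −0.64 (−1.03 to −0.27). The difference between these cells and the inner root sheath cells was not tested.

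Of 20 measured transcription factors of matrix and sheath, none was 2-fold higher and 4 were 2-fold lower, Myb, Msx1, Dlx2 and the vitamin D receptor gene Vdr. The shares over all genes tested were 1.16% higher and 2.38% lower. Myb was at 44.2 and 16.3 CPM, Msx1 at 138 and 58.5 CPM, Dlx2 at 54.4 and 25.5 CPM, and Vdr at 81.0 and 37.8 CPM. Without the cells carrying other markers Msx1 and Dlx2 stood at log2 ratios of −0.97 and −0.91, just short of 2-fold, and Myb and Vdr at −1.10 and −1.05. Within the lowest keratin bin alone, Msx1 was at a log2 ratio of −0.89 (−1.18 to −0.60) and Myb at −1.18 (−1.73 to −0.68), so both were lower within that bin as well. Gata3 was at 221 and 244 CPM, a log2 ratio of 0.14 (0.0024 to 0.28), and Trps1 at 162 and 155 CPM, with an interval that spanned 0. Foxn1 was at 30.6 and 51.9 CPM, a log2 ratio of 0.76 (0.43 to 1.09).

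In the other signalling lists, few genes passed 2-fold. Over all genes tested, 1.16% were 2-fold or more higher and 2.38% lower. Of 11 Notch pathway genes, none was higher and 2 were lower. These were the ligand gene Jag2, at 67.3 and 27.3 CPM and a log2 ratio of −1.31 (−1.71 to −0.92), and Lfng, which modifies Notch receptors, at 17.0 and 7.91 CPM. Without the cells carrying other markers Lfng was at a log2 ratio of −0.80, short of 2-fold. Of 21 Wnt pathway genes, 3 were lower (Wnt10b, Fzd7 and Tcf7l1) and 1 was higher (Wnt11). Wnt10b, a ligand of the matrix, was at 29.6 and 12.3 CPM, Tcf7l1 at 32.0 and 12.7 CPM, and Wnt11 at 25.6 and 51.9 CPM, or 25.5 and 40.8 CPM without the cells carrying other markers. None of 13 BMP pathway genes passed 2-fold in either direction, and 12 of them were below 0, as were 66.0% of all genes tested, with a list median of −0.53 beside −0.14 over all genes.

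No S or G2/M phase gene was past 2-fold in either direction. Of the S phase genes 18 of 20 and of the G2/M genes 19 of 20 were below 0, with medians of −0.24 and −0.37, where 66.0% of all genes tested were below 0. Without the cells carrying other markers 14 of 20 in each list were below 0, a share of 70% beside 65.8% of all genes. Mki67 was at 833 and 464 CPM, a log2 ratio of −0.84 (−0.94 to −0.75), and was found in 72.3% (67.9 to 76.4%) of control and 49.6% (40.8 to 58.4%) of Gli2EKO members thinned to 2000 UMIs. The share in immune and endothelial cells was 37.7% and 31.9%. Top2a was at 864 and 586 CPM. Without the cells carrying other markers Mki67 was at a log2 ratio of −0.68 (−0.78 to −0.58) and Top2a at −0.40 (−0.49 to −0.31). Among 12 genes that respond to tissue dissociation only Fos passed 2-fold, at 167 and 67.7 CPM, with a list median of −0.16, and Fos was also lower in Gli2EKO matrix (131 and 51.2 CPM) and hair shaft cells (169 and 68.3 CPM).

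Some of the suprabasal genes that stood higher over all Gli2EKO members lost the difference when the cells carrying other markers were left out. Krt1, Krt10, Krt79 and Krt16 were among the genes that chose those cells, so their fall follows from the choice. Krt1 and Krt10, keratins of the suprabasal interfollicular epidermis, were at 239 and 1483 CPM and at 439 and 2249 CPM over all members. Without the cells carrying other markers they were at 41.8 and 52.1 CPM and at 83.2 and 76.9 CPM, log2 ratios of 0.32 and −0.11. Of 8 measured interfollicular suprabasal markers 5 were past 2-fold higher over all members, namely Krt1, Krt10, Krtdap, Sbsn and Dmkn, beside 1.16% of all genes tested. Krtdap, Sbsn and Dmkn did not choose the cells carrying other markers, and Krtdap was at a log2 ratio of 0.61 without them, short of 2-fold. Without those cells Sbsn and Dmkn were at log2 ratios of 2.00 and 1.23, with 60.1% of the Sbsn but 14.0% of the Dmkn UMIs of the Gli2EKO library in 1 cell, and Dmkn was then detected in 77 of 111 Gli2EKO members. Krt79 and Krt16 were at 80.6 and 315 CPM and at 15.4 and 87.9 CPM over all members, and at 29.2 and 11.8 CPM and 6.07 and 9.47 CPM without those cells. Krt14, the basal keratin whose promoter drives Cre, was 2-fold or more higher with and without them, at 528 and 1282 CPM and at 471 and 1047 CPM. Without them, however, 1 cell held 24.9% of the Gli2EKO Krt14 UMIs, and the level without that cell was not taken. Krt14 was not 2-fold higher in matrix and hair shaft cells, where its log2 ratios were −0.18 and 0.15. Tchh was at 476 and 1850 CPM, with 47.5% of its Gli2EKO UMIs in 1 cell. In the lowest bin, without that cell, it was at 43.5 and 44.2 CPM.

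Several genes far lower in Gli2EKO members were genes of 1 control cell: Defb6 and Elf5 had over 99% of their control UMIs in 1 cell each, and Cst6 had 93.1%. The smooth muscle type genes Tagln and Acta2 were spread more widely. Tagln was detected in 71 control and 9 Gli2EKO members, at 133 and 7.03 CPM, and Acta2 in 67 and 12 members, at 78.9 and 11.4 CPM. The control cell with the most held 19.5% of the Tagln and 14.3% of the Acta2 UMIs. With thinning, however, Tagln was found in 6.08% and 2.26% of members, against 4.62% and 4.17% of immune and endothelial cells. Vcan, a proteoglycan gene, was at 53.0 and 7.91 CPM, and Soat1, which esterifies cholesterol, at 29.6 and 2.64 CPM. Among genes higher in Gli2EKO, the stefin genes Stfa3 and Stfa1, inhibitors of cysteine proteases, were at 282 and 2296 CPM and 68.2 and 551 CPM, and without the cells carrying other markers Stfa3 was at 164 and 509.5 CPM and Stfa1 at 37.8 and 73.4 CPM. Without those cells, 1 cell each still held 40.4% of the Gli2EKO Stfa3 and 28.2% of the Stfa1 UMIs.

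**Figure D5:**
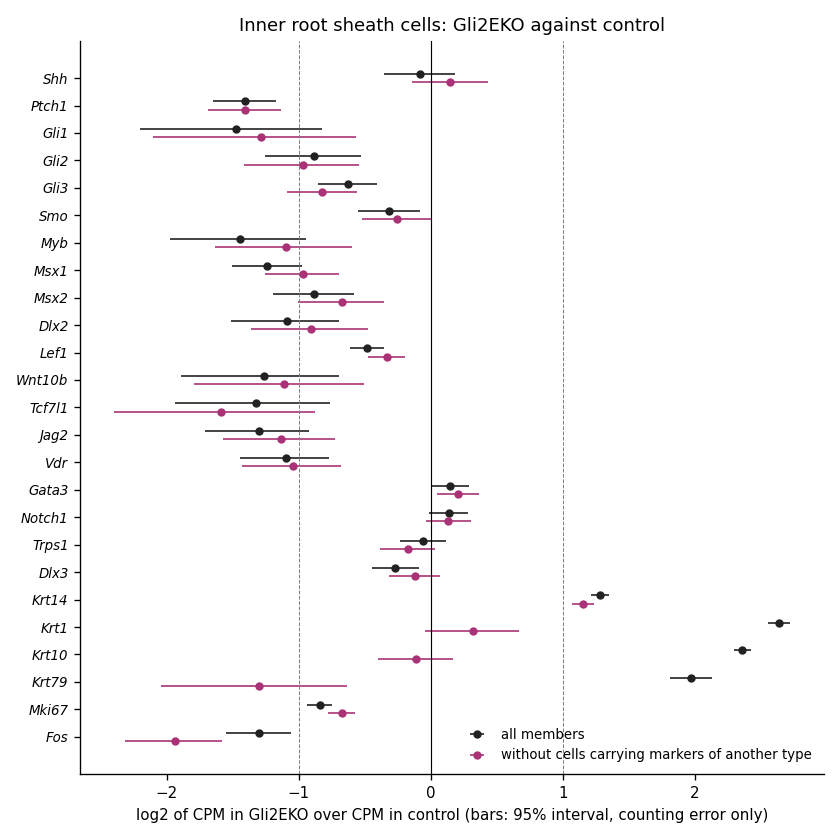
Log2 ratio of CPM in Gli2EKO over control inner root sheath cells for 25 genes, with all members in black and without the cells carrying markers of another cell type in purple, bars giving 95% intervals for counting error and dashed lines 2-fold. Ptch1 and Gli1 lie below 0 either way and Shh near it, whereas Krt1 lies near 0, and Krt10 and Krt79 change sign, without those cells. Krt1, Krt10 and Krt79 were among the genes that chose those cells.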

How the data were processed

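Single-cell suspensions of epidermis from dorsal skin of 2-day-old mice were profiled as 1 droplet library per genotype with polyA-primed 3′ chemistry. The deposited matrices hold whole-number UMI counts per gene and cell, which the authors made with Cell Ranger 9.0.1 on GRCm39 with GENCODE annotation and filtered to cells. The deposited barcode and feature lists were used as they stand, as names of cells and genes. The study then worked in Seurat and removed doublets with scDblFinder, which was not run here. Doublets were not removed, and leaving out the 8% of cells with the highest Scrublet scores was tried instead. Members and gene lists were chosen with earlier results of these data known.

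UMIs were summed over cells and expressed as CPM without the 5 rule keratins. A gene needed at least 100 UMIs in the libraries together and was counted at 2-fold. Named genes were all members of the gene lists, the 10 genes highest and the 10 lowest in Gli2EKO over control by the interval bound nearest 0, the 15 highest and 15 lowest along the keratin sum by the smaller of both libraries, and the 15 highest and 10 lowest against matrix and hair shaft cells by the smallest of 4 ratios. For the Krt73 and Krt71 sets, the 12 genes furthest on each side were named. A few named or listed genes are not reported here. The parting by Krt73 and Krt71, the removal of cells carrying markers of another cell type, the removal of the 2% of cells highest in each gene and the bin-by-bin trends were chosen after seeing the data. Intervals are exact Poisson (CPM), Clopper-Pearson (shares) and conditional binomial (ratios). They cover counting error only, because cells are not replicates and no count model was fitted. A group at 0 UMIs was given a floor of 3 counts. Shares of cells with a UMI were also taken at a fixed depth of 2000 UMIs, which left out 1 control member, and set beside those in immune and endothelial cells. Alternatives changed the keratin minimum, the Cux1 minimum, the mitochondrial limit, the gene minimum, the denominator, the weighting of cells and the matrix minimum. The calculations ran in Python 3.11.15 with numpy 2.4.6, scipy 1.17.1, pandas 2.3.3, scanpy 1.11.5 and matplotlib 3.10.9, and were tested on simulated data. Of 56694 feature identifiers, 56017 were found in the later GENCODE release for GRCm39 that gave promoter coordinates.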

Additional observations from a re-analysis of the deposited data

Results flagged for a closer look

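Barcodes left out by the limits on genes and mitochondrial UMIs also held inner root sheath keratins. The keratin, Cux1 and Krt35 criteria were met by 58 of 1482 such barcodes in the control (3.91%, 2.98 to 5.03%) and by 42 of 934 in the Gli2EKO library (4.50%, 3.26 to 6.03%). These barcodes had median totals of 2104.5 and 1980 UMIs, at which a few UMIs suffice to meet the criteria and a background at that depth was not measured, and 31 and 24 of them had too few genes while 41 and 34 had too many mitochondrial UMIs. At 100 or more keratin UMIs per 10000 were 10.3% and 23.8% of them, 6 and 10 barcodes. Within the limits, 1 of 130 control and 0 of 73 Gli2EKO immune and endothelial cells met the whole rule.

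Along the keratin sum, 4 of the named and listed genes pointed in opposite directions in the libraries, with counting intervals on opposite sides of 0, and the difference between the libraries was not tested. Soat1 had a log2 ratio of high over lowest bins of −2.75 in the control, from 0 and 187 UMIs, and of 3.99 in the Gli2EKO library, from 4 and 1 UMIs. Atf3, a stress-response transcription factor gene, had 1.57 in the control and −1.01 in the Gli2EKO library. Flg, which encodes filaggrin of the granular layer, had 4.85 in the control, from 50 and 16 UMIs, and −1.59 in the Gli2EKO library, from 0 and 36 UMIs. Krt16, a companion and wound keratin, had 3.64 in the control, from 54 and 40 UMIs, and −1.13 in the Gli2EKO library, from 8 and 70 UMIs. Of the Gli2EKO UMIs of Flg and Krt16, 81.1% and 50.5% came from 1 cell each. Without cells carrying markers of another cell type, none of the 4 kept opposite directions. Atf3 was then below 0 in both libraries, at −1.37 in the control, and Krt16 above 0 in both, at 0.84 in the Gli2EKO library. Soat1 and Flg gave no direction in the Gli2EKO library, where a count of 0 taken at the floor of 3 counts left no difference of known sign.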

How the results depend on the processing

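The ratio of the Gli2EKO to the control share of inner root sheath cells was 0.554 at a keratin minimum of 20 per 10000 and between 0.379 and 0.478 under the other settings. Of the genes higher and lower in Gli2EKO there were 57 and 115 at that minimum and 270 and 597 with genes of at least 30 UMIs. There were 64 higher with the Gli2EKO bins weighted to the control, and 38 higher without cells carrying markers of another cell type. Along the sum, 66 genes were higher and 137 lower at the keratin minimum of 20, 244 were higher between 100 and 400 over the lowest bin, and 214 were higher and 132 lower between 20 and 100 over it. With genes of at least 30 UMIs, 77 were higher than in matrix and hair shaft cells, and without cells carrying other markers 52 were lower.

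Of 197 named or listed genes, the log2 ratio of Gli2EKO over control left its counting interval in 119 at the keratin minimum of 20 and in 71 without cells carrying other markers. These counts include genes under 2-fold that changed sign, such as Flg, above 0 over all members but at −2.25 without cells carrying other markers. Ratios of 2-fold or more that changed sign were counted apart. Without cells carrying other markers they were −0.74 for Cnfn, 0.93 for Cst6, −0.54 for Dct, 2.41 for Defb6, −0.11 for Krt10, −1.30 for Krt79, −0.22 for Lum, −0.26 for Ndufa4l2 and −0.96 for Pmel. Without the cells of the highest doublet scores they were −0.39 for Cnfn, −1.21 for Dct and −1.56 for Pmel. Without the 2% of cells highest in each gene they were 0.0028 for Col1a2, 0.96 for Cst6, −0.62 for Dct and −2.08 for Pmel. At the keratin minimum of 20 Lum was at −1.59. Along the sum, Cdon was at −0.026 and Krt17 at 0.53 between 20 and 100, Dlx2 at 0.031 at the minimum of 20, and Atf3 in the control at −1.37 without cells carrying other markers. Krt16 in the Gli2EKO library was at 0.18 with no Cux1 minimum, 0.84 without cells carrying other markers and 1.76 between 20 and 100. Apart from what the removal of cells shows by construction, the cause was not tested. With 1 library per genotype, no replicate could be left out. No paired analysis was possible because each genotype had 1 library. Genes under 100 UMIs, bins of few cells and the 14 Gli2EKO cells at the high end limit what the depth can show.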

Other observations

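Genes of the Y chromosome were read in inner root sheath cells of both libraries, at 110 and 101 CPM for Eif2s3y and 56.1 and 36.1 CPM for Ddx3y in control and Gli2EKO members, and Xist had 1 and 0 UMIs there and 11 and 6 UMIs over all cells. The Y-linked long non-coding RNA Gm47283 was at 115 and 15.7 CPM in members and at 84.1 and 13.3 CPM over all cells of the libraries, so that its difference was not particular to these members.

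All 78 measured ribosomal protein genes were above 0 in Gli2EKO over control members, with a median log2 ratio of 0.21, where 34.0% of all genes tested were above 0 and their median was −0.14, and none passed 2-fold there or along the keratin sum.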
